A study of Mus musculus with 16 samples.

Results

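The genes described here encode the machinery of oxidative phosphorylation, grouped by respiratory complex. They were chosen by symbol alone, as the genes of the array whose symbol begins with Nduf, Uqcr, Cox4 to Cox8 or Atp5, or is Sdha, Sdhb, Sdhc or Sdhd. The rule found 77 of the 18138 genes in the table. By prefix, 34 belonged to complex I, 3 to complex II, 6 to complex III, 17 to complex IV and 16 to complex V, and 1, Ndufaf1, to the assembly factors of complex I. Of the 77 genes, 67 were above background on at least 2 of the 16 arrays and were tested, 62 of them on all 16, and 10 were above background on none.

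Oxidative phosphorylation takes place in the inner mitochondrial membrane. Complex I (NADH dehydrogenase) and complex II (succinate dehydrogenase) pass electrons to ubiquinone, complex III passes them on to cytochrome c, complex IV (cytochrome c oxidase) hands them to oxygen, and complex V (ATP synthase) makes ATP from the proton gradient that complexes I, III and IV build up. Most subunits are encoded in the nucleus, while several catalytic subunits of complexes I, III, IV and V come from mitochondrial DNA and lie outside the rule. Activated T cells raise glycolysis and also depend on mitochondrial ATP and intermediates, and Akt is a kinase that promotes glucose uptake and glycolysis.

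The study asked which transcripts of an activated T helper cell line depend on Akt. D10, a fast-growing variant of a mouse Th2 clone kept in medium with IL-2, was either left without inhibitor (control) or pre-incubated for 1 h with 10 µM Akti1/2, an allosteric inhibitor of Akt1 and Akt2, and then stimulated through CD3 and CD28 (biotinylated antibodies joined by streptavidin, in both arms) for 0, 2, 6 or 12 h. Each of the 8 groups had 2 arrays, and the arrays lay on 2 chips that each held 1 array of every group. No group was left unstimulated past 0 h. Stimulation, time in culture and, in treated cells, time since Akti1/2 was added therefore cannot be told apart. Control cells are called untreated in the study's methods, while its results name a solvent, and the labels do not say whether duplicates were separate cultures, so p-values measure the spread between these arrays, which may be technical.

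Of 8 markers of T helper and Th2 cells, Cd3d, Cd3e, Cd3g, Cd28, Lck and Gata3 were above background on all 16 arrays, Cd4 was on 13 and Thy1, a general marker of T cells, on none. Neither CD8 gene, none of the 5 myeloid genes and neither Tbx21 nor Foxp3 was above background on any array, and the B cell gene Ms4a1 was on 1. Per array, 6288 to 6907 genes were above background, and the second array of the 2 h Akti1/2 group had the narrowest range of intensities, with a 95th percentile 8.98 times the mean of its negative controls against 11.1 to 14.3 times on the others. In RNA from whole cultures, fewer cells that express a gene and less RNA per cell cannot be told apart.

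Values are log2 intensities after background correction and quantile normalisation, and each gene has 1 value per array. Intensities of different genes depend on their probes, so levels were compared only within a gene. The 67 tested genes had mean log2 intensities from 5.08 to 13.99. The 10 genes not above background on any array were Ndufab1 and Ndufs1 of complex I, Uqcrfs1 and Uqcrq of complex III, Cox4i2, Cox6b2, Cox7b2, Cox8b and Cox8c of complex IV, and Atp5k of complex V. Several of these are isoforms known from other tissues, such as Cox4i2 from lung, Cox8b from muscle and Cox6b2, Cox7b2 and Cox8c from testis. Others, such as Ndufs1 and Uqcrfs1, encode essential core subunits, so a reading at background for them says only that the probe gave no signal. Sdha, Cox8a, Atp5g1 and Ndufa4l2 were not among the genes of the table as used here. Of the tested genes, Atp5s and Ndufb11 were above background on 14 arrays, Sdhd on 15, Ndufb4 on 5 and Cox6a2 on 2. Cox6a2 passed the filter on dim genes only through the 12 h Akti1/2 arrays.

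Some symbols carry a prefix that no longer matches the product. Cox4nb is now named Emc8 and encodes a subunit of the endoplasmic reticulum membrane complex. Atp5sl is now Dmac2, an assembly factor of the membrane arm of complex I, and Atp5s is now Dmac2l. Cox7a2l encodes a factor that joins complexes III and IV into supercomplexes, Ndufa4 is now counted with complex IV, Atp5f1 is now Atp5pb and Uqcr is now Uqcr11. All were kept in the group of their prefix.

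Promoters of the nuclear genes for respiratory subunits are known for sites of NRF1, of the ETS factor GABP and of YY1. Promoters from RefSeq (GRCm38.p6), 250 bases before to 50 after the start, were found for 63 of the 77 genes, 69 promoters in all. They were searched on both strands for GCGCANGC (the core of the NRF1 site), CCGGAAG (an ETS site) and AAGATGGC (a YY1 site), and no site overlapped a site of another motif in these promoters, while NRF1 cores overlapped each other in Atp5g2, Atp5k, Cox6a1, Ndufa6 and Uqcrc1. Among the genes with no entry were Atp5a1, Cox4i1, Cox4i2, Cox4nb, Cox6a2, Cox6c, Cox8c, Ndufa2, Ndufb9, Sdhc, Uqcrc2 and Uqcrq. The NRF1 core was found in 31.9% of the 69 promoters against 9.95% of all 32851 promoters in the table. These shares were 23.2% against 8.86% for the ETS site and 17.4% against 2.75% for the YY1 site. At least 1 of the motifs was in 58.0% against 19.0%. By complex, at least 1 was in 56.2% of the 32 promoters of complex I, 73.7% of the 19 of complex V and 18.2% of the 11 of complex IV. The genes lower with Akti1/2 at 12 h had at least 1 motif in 69.6% of 23 promoters from 20 genes. Those higher had it in 66.7% of 6 from 5 genes and those not called at that time in 55.9% of 34 from 32 genes. Windows of a gene with more than 1 start were counted apart, also where they overlapped and held the same site. These are counts of letters and were not tested.

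The promoters of 4 genes are shown because, among genes with an entry, Atp5g3, Ndufb7 and Uqcr had the largest fall of their complex at 12 h and Cox7a2l the largest rise of its own, and because they differ in the motifs they hold. Their windows are chr2:73911277-73911576 on the minus strand for Atp5g3, chr8:83566508-83566807 on the plus strand for Ndufb7, chr10:80406772-80407071 on the minus strand for Uqcr and chr17:83514284-83514583 on the minus strand for Cox7a2l, each printed 5′ to 3′ along its gene. Letters in capitals mark an NRF1 core in Atp5g3, an ETS site in Ndufb7, and in Uqcr an ETS site followed by an NRF1 core. The NRF1 core in Atp5g3 and that in Uqcr are on the opposite strand and so read as its reverse complement. None of the 3 motifs was found in the window of Cox7a2l.
Atp5g3: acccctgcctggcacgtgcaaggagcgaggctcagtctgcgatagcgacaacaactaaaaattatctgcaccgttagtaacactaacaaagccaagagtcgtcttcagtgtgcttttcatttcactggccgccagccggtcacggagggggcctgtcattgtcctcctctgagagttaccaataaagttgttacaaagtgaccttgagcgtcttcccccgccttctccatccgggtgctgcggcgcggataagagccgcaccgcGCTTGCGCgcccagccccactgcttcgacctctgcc
Ndufb7: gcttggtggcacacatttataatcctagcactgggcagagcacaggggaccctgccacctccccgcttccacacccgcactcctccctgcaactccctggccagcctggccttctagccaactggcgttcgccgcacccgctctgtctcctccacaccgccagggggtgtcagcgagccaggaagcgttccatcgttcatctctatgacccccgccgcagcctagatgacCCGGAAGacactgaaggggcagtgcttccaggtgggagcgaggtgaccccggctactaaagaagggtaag
Uqcr: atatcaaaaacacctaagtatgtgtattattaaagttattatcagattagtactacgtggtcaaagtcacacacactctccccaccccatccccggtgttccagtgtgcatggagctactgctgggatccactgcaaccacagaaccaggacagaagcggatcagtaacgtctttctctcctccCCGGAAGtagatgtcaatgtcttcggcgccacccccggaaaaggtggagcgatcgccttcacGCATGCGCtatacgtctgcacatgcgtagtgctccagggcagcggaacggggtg
Cox7a2l: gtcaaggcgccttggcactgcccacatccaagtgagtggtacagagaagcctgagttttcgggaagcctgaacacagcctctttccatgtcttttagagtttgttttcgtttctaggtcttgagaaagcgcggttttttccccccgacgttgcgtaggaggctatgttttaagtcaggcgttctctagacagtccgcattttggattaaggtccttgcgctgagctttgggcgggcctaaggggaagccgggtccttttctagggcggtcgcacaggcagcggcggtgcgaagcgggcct

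In control cells, few of these genes passed the test after stimulation. At 2 h none of the 67 was called, against 10.3% of all 7395 genes tested in either direction, with 10 at an unadjusted p under 0.05 and a median log2 change of 0.13 against -0.02 over all genes. At 6 h none rose (12.1% of all genes) and 2 fell (15.4% of all genes), with a median change of 0.01. At 12 h 2 rose (12.7% of all genes) and 1 fell (15.1% of all genes), with a median of -0.02. So the share of these genes called was below that of all genes at each time.

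The pair that fell at 6 h were Atp5s and Atp5sl. Atp5sl read 7.29 and 7.15 at 0 h and 6.75 and 6.69 at 6 h in control cells, a fall on each array (log2 difference -0.50, SE 0.11, adjusted p = 0.00695). Atp5s read 6.21 and 6.27 at 0 h and 5.45 and 5.90 at 6 h (log2 difference -0.56, SE 0.18, adjusted p = 0.0392). At 12 h the assembly factor Ndufaf1 had risen from 8.30 and 8.37 to 8.99 and 8.67 (log2 difference 0.50, SE 0.13, adjusted p = 0.0117). Ndufb7, an accessory subunit of the membrane arm of complex I, rose from 8.72 and 8.97 to 9.25 and 9.29 (log2 difference 0.42, SE 0.14, adjusted p = 0.0414). Ndufa9, an accessory subunit near the ubiquinone site, fell from 11.75 and 11.70 to 11.34 and 11.38 (log2 difference -0.36, SE 0.12, adjusted p = 0.0401). In none of these 5 changes did the arrays overlap those of 0 h, but with the first 0 h control array left out the calls fell to 0 at 6 h and to 0 at 12 h, and without the first 12 h control array to 0 at 12 h. Without the first 2 h control array, 2 genes were called at 2 h.

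Before stimulation, none of the 67 genes was called between cells with and without Akti1/2 by limma with Benjamini-Hochberg adjustment. In all, 4 of the 7395 genes (0.0541%) were called at 0 h, 3 of the 67 had an unadjusted p under 0.05, and the median log2 difference (Akti1/2 minus control) was 0.05. Ndufb7 read 8.72 and 8.97 in control cells against 9.18 and 9.27 with Akti1/2 (log2 difference 0.38, SE 0.14, adjusted p = 0.829). Its arrays did not overlap, though the gene was not called. Arrays also lay apart in other genes not called, such as Sdhb and Cox7a2l from 0 to 2 h in control cells. Separation of 2 arrays from 2 is therefore a description, here and elsewhere in this report, and no support beyond the fit.

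**Figure D1:**
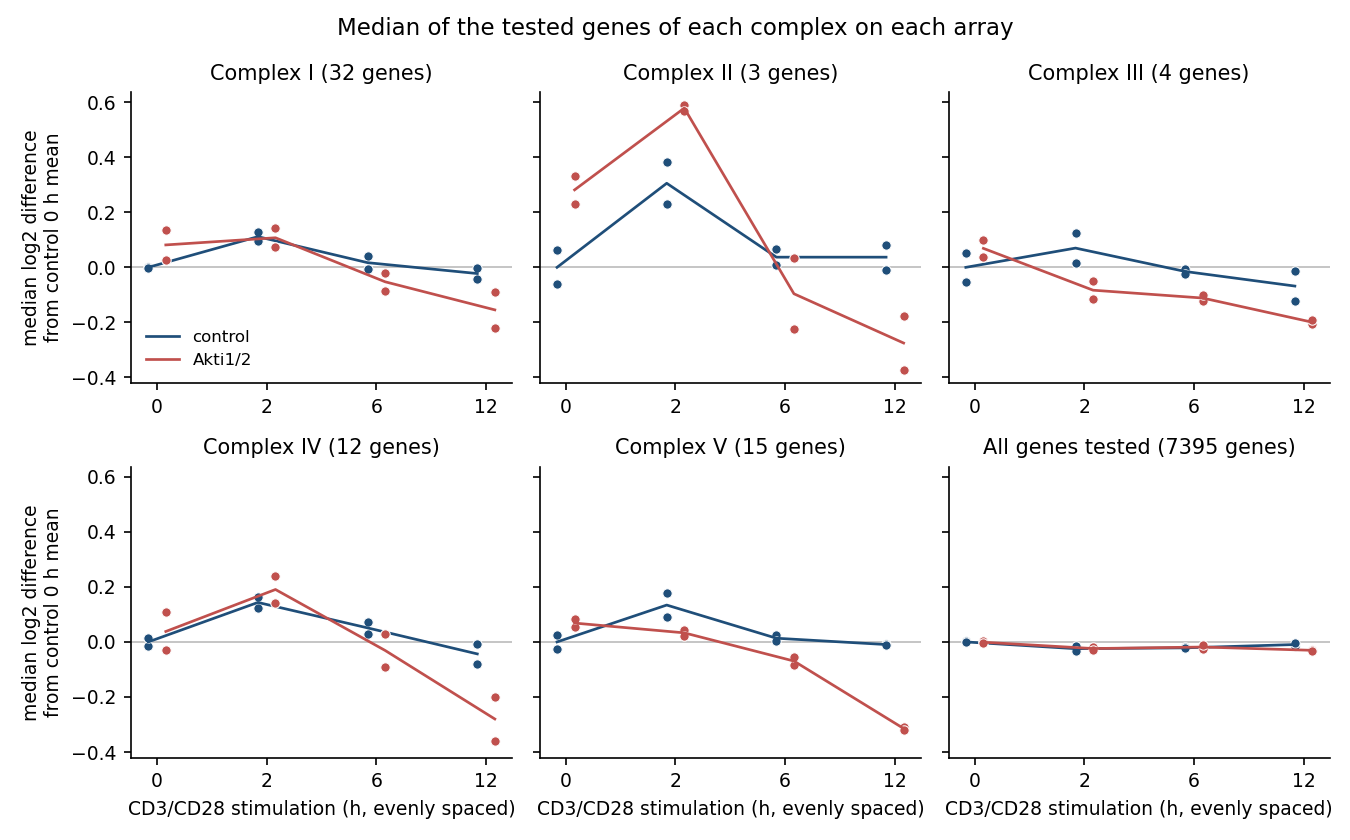
Median, over the tested genes of each complex, of the log2 difference from the mean of the 0 h control arrays (y axis) against hours of CD3/CD28 stimulation, evenly spaced (x axis). Each point is 1 array and lines join the means of control (blue) and Akti1/2 (red). At 12 h the Akti1/2 arrays lay at -0.31 and -0.32 for complex V and at -0.36 and -0.20 for complex IV, while control arrays of both lay between -0.08 and -0.01.

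After stimulation the number of genes called between the arms grew with time, among these genes and over all genes. The share of these genes called lower was 8.96% at 2 h, 16.4% at 6 h and 31.3% at 12 h. It was below that of all genes at 2 and 6 h and above it at 12 h. Fewer of these genes than of all genes were called higher at each time. At 2 h, 2 of the 67 were higher (13.6% of all genes) and 6 lower (14.9% of all genes), with a median difference of -0.05. At 6 h, 3 were higher (18.8% of all genes) and 11 lower (18.7% of all genes), with a median of -0.10. At 12 h, 6 were higher (24.2% of all genes) and 21 lower (24.8% of all genes), and the median was -0.29 against -0.02 over all genes tested.

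The shares at 12 h were thus 8.96% higher and 31.3% lower. In 52 of the 67 genes the difference was below 0, against 3800 of all 7395. The 21 genes called lower and the 6 called higher had that direction on each chip. The chips hold the same arrays that gave the calls, so this is no separate support. The median over the 67 was -0.28 on chip 1 and -0.16 on chip 2 at 12 h, while at 6 h it was -0.17 on chip 1 and 0.02 on chip 2. From 6 h to 12 h the difference became lower in 50 of the 67 genes, a count that was not made over all genes.

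On each array the median of the 67 genes, taken relative to the 0 h control mean, lay at -0.04 and 0.00 in control cells at 12 h and at -0.27 and -0.20 with Akti1/2. At 2 h it lay at 0.10 and 0.15 in control cells and at 0.08 and 0.11 with Akti1/2, and at 6 h at 0.03 and 0.00 against -0.10 and -0.03. The arms overlapped at 2 h and not at 6 or 12 h.

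By complex, the median difference at 12 h was -0.15 in complex I, -0.38 in complex II, -0.12 in complex III, -0.32 in complex IV and -0.36 in complex V, and each stayed below 0 under the other scalings tried. Complex V had the largest share called lower, 46.7% of 15 genes, followed by 33.3% of 12 in complex IV, 33.3% of 3 in complex II, 25.0% of 4 in complex III and 21.9% of 32 in complex I. With 24.8% of all genes lower, the shares of complexes I and III were near that background. Those of complexes II and IV rest on 1 of 3 and 4 of 12 genes, too few to set them apart from it. Cox4nb, no subunit of the oxidase, is among the latter. Differences between complexes were not tested. Leaving out any of the 4 arrays of 12 h left 20 to 22 genes called at 12 h. At 2 h the 8 calls fell to 3 without the first control array, 2 without the second, 4 without the first Akti1/2 array and 2 without the second. At 6 h the 14 calls fell to 6 without the first control array and 9 without the second.

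**Figure D2:**
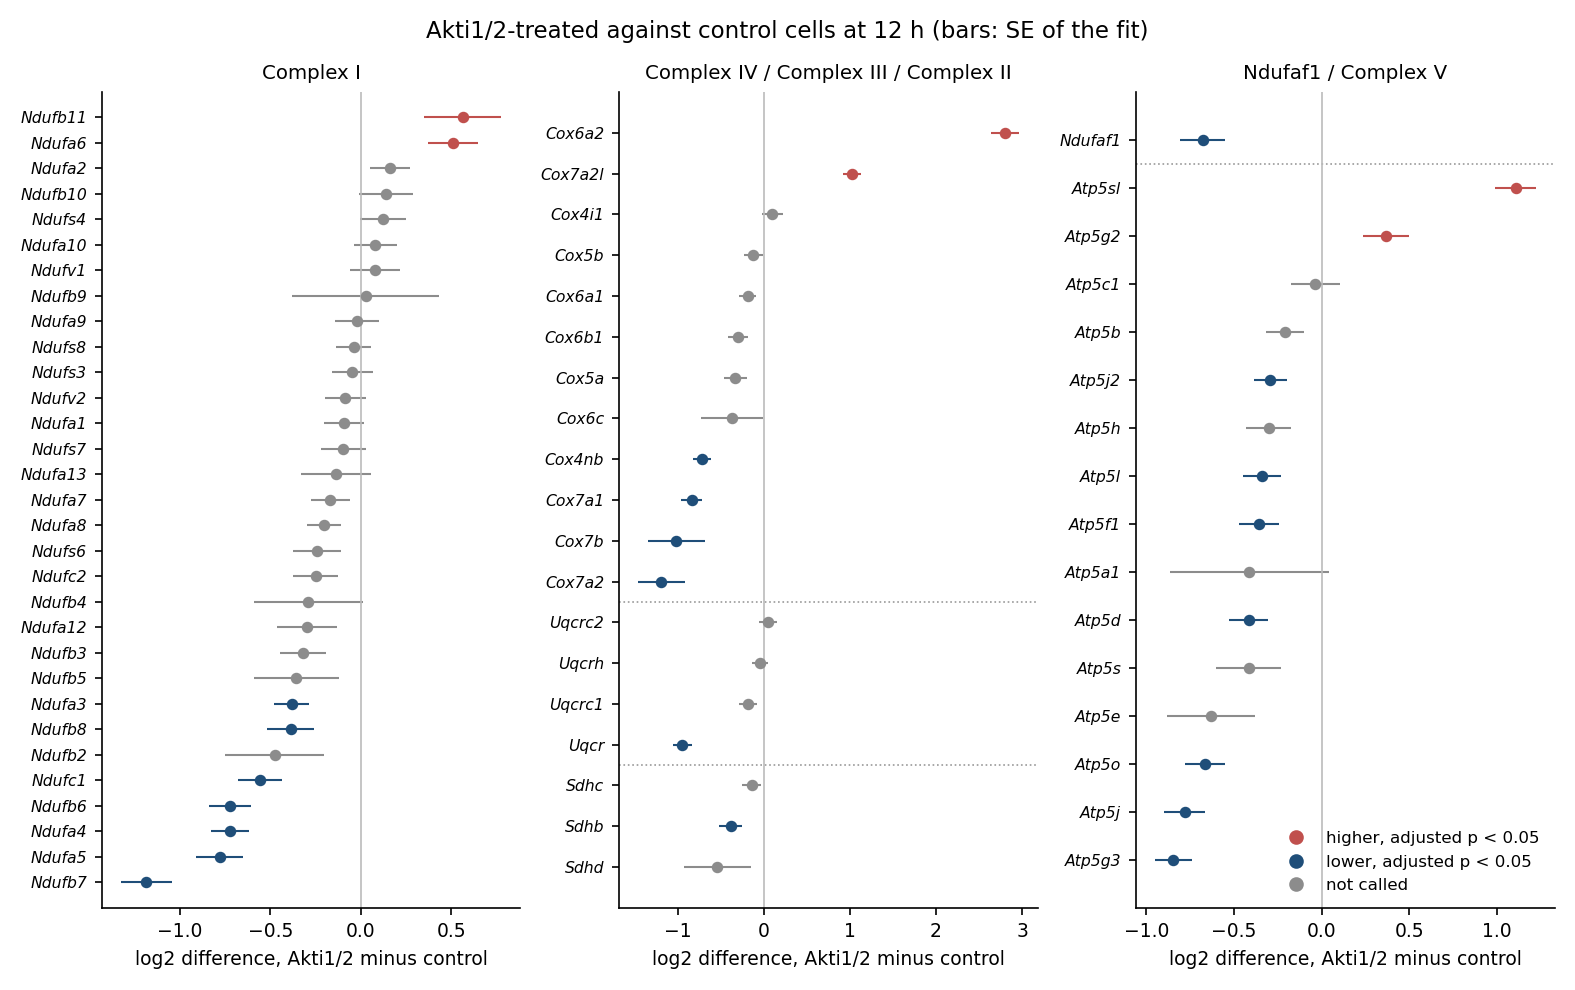
Log2 difference between Akti1/2-treated and control cells at 12 h (x axis) for the tested genes but 1 (y axis, grouped by complex, each panel with its own scale); bars are the SE of the fit over 2 arrays per group, red and blue mark genes higher and lower at an adjusted p under 0.05. Cox6a2 at 2.80 stood to the right of the rest, and its control arrays were at background. Ndufb7 and Cox7a2, both at -1.19, lay lowest.

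Complex I oxidises NADH, and 32 of its genes were tested. At 12 h, 7 were lower with Akti1/2, which is 21.9% against 24.8% of all genes, 2 were higher, which is 6.25% against 24.2%, and 23 were not called. The core subunits, which between them hold the flavin and the iron-sulphur clusters, and the accessory subunits are given apart, a split made with the values known and not tested. Of the 6 core genes tested, 0 were called at 0, 2, 6 or 12 h, and the median difference at 12 h was -0.04. Ndufv1, which binds NADH, read 11.71 and 11.69 in control cells against 11.82 and 11.74 with Akti1/2 at 12 h (log2 difference 0.08, SE 0.14, adjusted p = 0.675). Of the 26 genes counted as accessory by prefix, 7 were lower and 2 higher, with a range from -1.19 to 0.56. Ndufa4, now counted with complex IV, is among the 7.

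Ndufb7 showed the largest fall of the complex. It read 9.25 and 9.29 in control cells against 7.99 and 8.18 with Akti1/2 at 12 h. The arrays were far apart, with a 2.27-fold lower level with Akti1/2 (log2 difference -1.19, SE 0.14, adjusted p = 2.68e-05). At 6 h it read 9.11 and 9.15 against 8.62 and 8.66 (log2 difference -0.49, SE 0.14, adjusted p = 0.0171), and at 2 h 8.97 and 9.31 against 8.81 and 9.10, where the arms overlapped. The promoter of this gene is the second sequence shown above.

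Ndufa5, an accessory subunit of the peripheral arm, was already lower at 2 h. It read 10.68 and 10.66 in control cells against 10.19 and 10.14 with Akti1/2 at 2 h (log2 difference -0.50, SE 0.13, adjusted p = 0.0136), 10.62 and 10.67 against 10.06 and 10.07 at 6 h (log2 difference -0.58, SE 0.13, adjusted p = 0.00391), and 10.59 and 10.86 against 9.76 and 10.13 at 12 h (log2 difference -0.78, SE 0.13, adjusted p = 0.000332). Control arrays stayed between 10.59 and 10.86 after stimulation and Akti1/2 arrays between 9.76 and 10.19, without overlap. Along with Ndufaf1 it was the gene called lower at all 3 times.

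Of the other genes counted as accessory by prefix, Ndufa4 (now with complex IV), Ndufb6, Ndufc1, Ndufb8 and Ndufa3 were lower at 12 h. Ndufa4 read 12.82 and 12.92 against 12.08 and 12.21 (log2 difference -0.72, SE 0.10, adjusted p = 0.00011) and was also lower at 6 h (log2 difference -0.47, SE 0.10, adjusted p = 0.00352). Ndufb6 read 11.48 and 11.43 against 10.70 and 10.76, with adjusted p = 0.000293 by limma. Both genes had arrays of the 2 arms well apart. For Ndufc1, Ndufb8 and Ndufa3 the log2 differences were -0.56, -0.39 and -0.38.

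Ndufa6 and Ndufb11 were higher with Akti1/2 at 12 h. Ndufa6, an accessory subunit that binds the acyl carrier protein, read 12.41 and 12.50 in control cells against 12.94 and 12.99 with Akti1/2 (log2 difference 0.51, SE 0.14, adjusted p = 0.00938), and Ndufb11, of the membrane arm, read 5.86 and 5.84 against 6.34 and 6.47 (log2 difference 0.56, SE 0.21, adjusted p = 0.0442). In neither did the arms overlap. The call of Ndufb11 was lost with any of the 4 arrays left out (highest adjusted p = 0.168) and with a replicate block (adjusted p = 0.0507), and that of Ndufa6 without the first control array or without the second Akti1/2 array (highest adjusted p = 0.0613).

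Ndufaf1, needed to assemble complex I, differed early and throughout. It read 8.05 and 8.07 in control cells against 7.68 and 7.60 with Akti1/2 at 2 h (log2 difference -0.42, SE 0.13, adjusted p = 0.0293), 8.58 and 8.29 against 7.66 and 7.67 at 6 h (log2 difference -0.77, SE 0.13, adjusted p = 0.000559) and 8.99 and 8.67 against 8.08 and 8.22 at 12 h (log2 difference -0.68, SE 0.13, adjusted p = 0.000827). With Akti1/2 it had read 8.37 and 8.40 at 0 h, and the control arrays at 12 h were the highest of the 16.

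Complex II links the citric acid cycle to the chain, and its anchor subunits Sdhc and Sdhd and the iron-sulphur subunit Sdhb were tested. Sdhc was lower with Akti1/2 at 2 h, when it read 9.82 and 9.76 in control cells against 8.99 and 9.11 with Akti1/2 (log2 difference -0.75, SE 0.12, adjusted p = 0.000805), the largest fall of the 67 genes at that time. It was not called at 6 h (-0.10, adjusted p = 0.55 by limma) or at 12 h (-0.14, adjusted p = 0.333). Sdhb read 10.49 and 10.57 against 10.78 and 10.76 at 2 h, with the Akti1/2 arrays higher and no call, and 10.18 and 10.27 against 9.81 and 9.87 at 12 h, with the Akti1/2 arrays lower (log2 difference -0.38, SE 0.13, adjusted p = 0.0312). That call was lost with any of the 4 arrays left out, the highest adjusted p being 0.141. Sdhd was not called against control cells at any time, and its 0 h Akti1/2 arrays read 6.48 and 5.29, so the spread within that group exceeded its difference at 12 h (log2 difference -0.54, SE 0.39, adjusted p = 0.276).

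Complex III holds the cytochrome b and c1 redox centres, and 4 of its 6 genes were tested. Uqcr, a small subunit of the complex, read 12.06 and 12.08 in control cells against 11.15 and 11.10 with Akti1/2 at 12 h, without overlap and 1.93-fold lower (log2 difference -0.95, SE 0.12, adjusted p = 3.26e-05). At 6 h it read 11.93 and 11.91 against 11.59 and 11.60 (log2 difference -0.33, SE 0.12, adjusted p = 0.042). The core proteins Uqcrc1 and Uqcrc2 did not pass the test at any time, and at 12 h Uqcrc1 read 11.31 and 11.38 against 11.10 and 11.22 (log2 difference -0.19, SE 0.10, adjusted p = 0.156). Uqcrc2 read 11.82 and 11.80 against 11.92 and 11.79 (log2 difference 0.05, SE 0.11, adjusted p = 0.746), and its sign turned to -0.07 when arrays were scaled to the same mean. Uqcrh, the hinge protein, was lower at 2 h alone, at 13.29 and 13.28 against 13.00 and 12.97 (log2 difference -0.30, SE 0.09, adjusted p = 0.0346).

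Complex IV reduces oxygen to water, and its nuclear subunits surround a catalytic core encoded in mitochondrial DNA. Of the 12 genes of this prefix that were tested, 4 were lower and 2 higher at 12 h.

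The VIIa family held changes in both directions. Cox7a2, the isoform of most tissues, read 8.10 and 8.35 in control cells against 7.07 and 7.01 with Akti1/2 at 12 h, 2.28-fold lower (log2 difference -1.19, SE 0.28, adjusted p = 0.00337). Cox7a1, the isoform known from heart and muscle, read 8.51 and 8.33 against 7.62 and 7.54 (log2 difference -0.84, SE 0.12, adjusted p = 9.34e-05) and was lower at 6 h as well (log2 difference -0.42, SE 0.12, adjusted p = 0.0138). Both fell below all control arrays of the series at 12 h. Cox7a2l, the related supercomplex factor, went up instead and read 10.18 and 10.38 against 11.37 and 11.24 at 12 h, 2.03-fold higher (log2 difference 1.02, SE 0.11, adjusted p = 9.68e-06). Its arms overlapped at 2 h, at 10.47 and 10.64 against 10.61 and 10.54, and were apart at 6 h, at 10.31 and 10.35 against 10.97 and 10.89 (log2 difference 0.60, SE 0.11, adjusted p = 0.000994). The last of the promoters printed above is that of Cox7a2l.

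The VIa isoforms are Cox6a1 and Cox6a2. Cox6a1, the ubiquitous form, read 12.86 and 12.94 in control cells against 12.62 and 12.80 with Akti1/2 and was not called (log2 difference -0.19, SE 0.10, adjusted p = 0.133). Cox6a2, the heart and muscle form, was above background on the 12 h Akti1/2 arrays alone, where it read 7.49 and 7.42. All other arrays were at background, among them those of control cells at 12 h at 4.75 and 4.56. A fold against a group at background is a bound, set by the lowest signal above background on its arrays. So measured, it was at least 3.34-fold higher with Akti1/2 than in control cells at 12 h (adjusted p = 1.21e-07, measured means 7.45 and 4.66), and at least 3.48-fold higher than with Akti1/2 at 0 h (adjusted p = 6.91e-08). The gene entered the tests only through these 12 h Akti1/2 arrays, so both p-values were set in part by that choice and are no independent support. At 6 h it read 4.34 and 4.84 against 5.31 and 5.18, with all of these arrays at background, and its call at that time, counted above, compares background values.

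Cox4i1, Cox6b1 and Cox7b were the other isoform genes above background. Cox4i1 read 13.14 and 13.43 against 13.41 and 13.36 at 12 h and the arms overlapped. Cox6b1 was lower at 2 h (log2 difference -0.34, SE 0.12, adjusted p = 0.0491) and 6 h (log2 difference -0.34, SE 0.12, adjusted p = 0.0407) and missed the threshold at 12 h (log2 difference -0.30, SE 0.12, adjusted p = 0.0555). Cox7b changed direction. At 2 h it was higher with Akti1/2, at 7.68 and 8.04 against 6.45 and 7.29 in control cells (log2 difference 0.99, SE 0.33, adjusted p = 0.0402), and at 12 h lower, at 5.54 and 5.93 against 6.95 and 6.55 (log2 difference -1.02, SE 0.33, adjusted p = 0.0221). Its call at 12 h was lost without the first control array or without the first Akti1/2 array (highest adjusted p = 0.14). Cox6c, a small subunit of the oxidase, was also higher at 2 h, at 13.44 and 13.43 against 12.18 and 12.63 (log2 difference 1.03, SE 0.36, adjusted p = 0.0492), and at 12 h it was not called. Cox4nb, which is no subunit of the oxidase, read 9.75 and 9.88 against 8.98 and 9.20 at 12 h (log2 difference -0.72, SE 0.11, adjusted p = 0.000135) and was lower at 6 h as well.

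**Figure D3:**
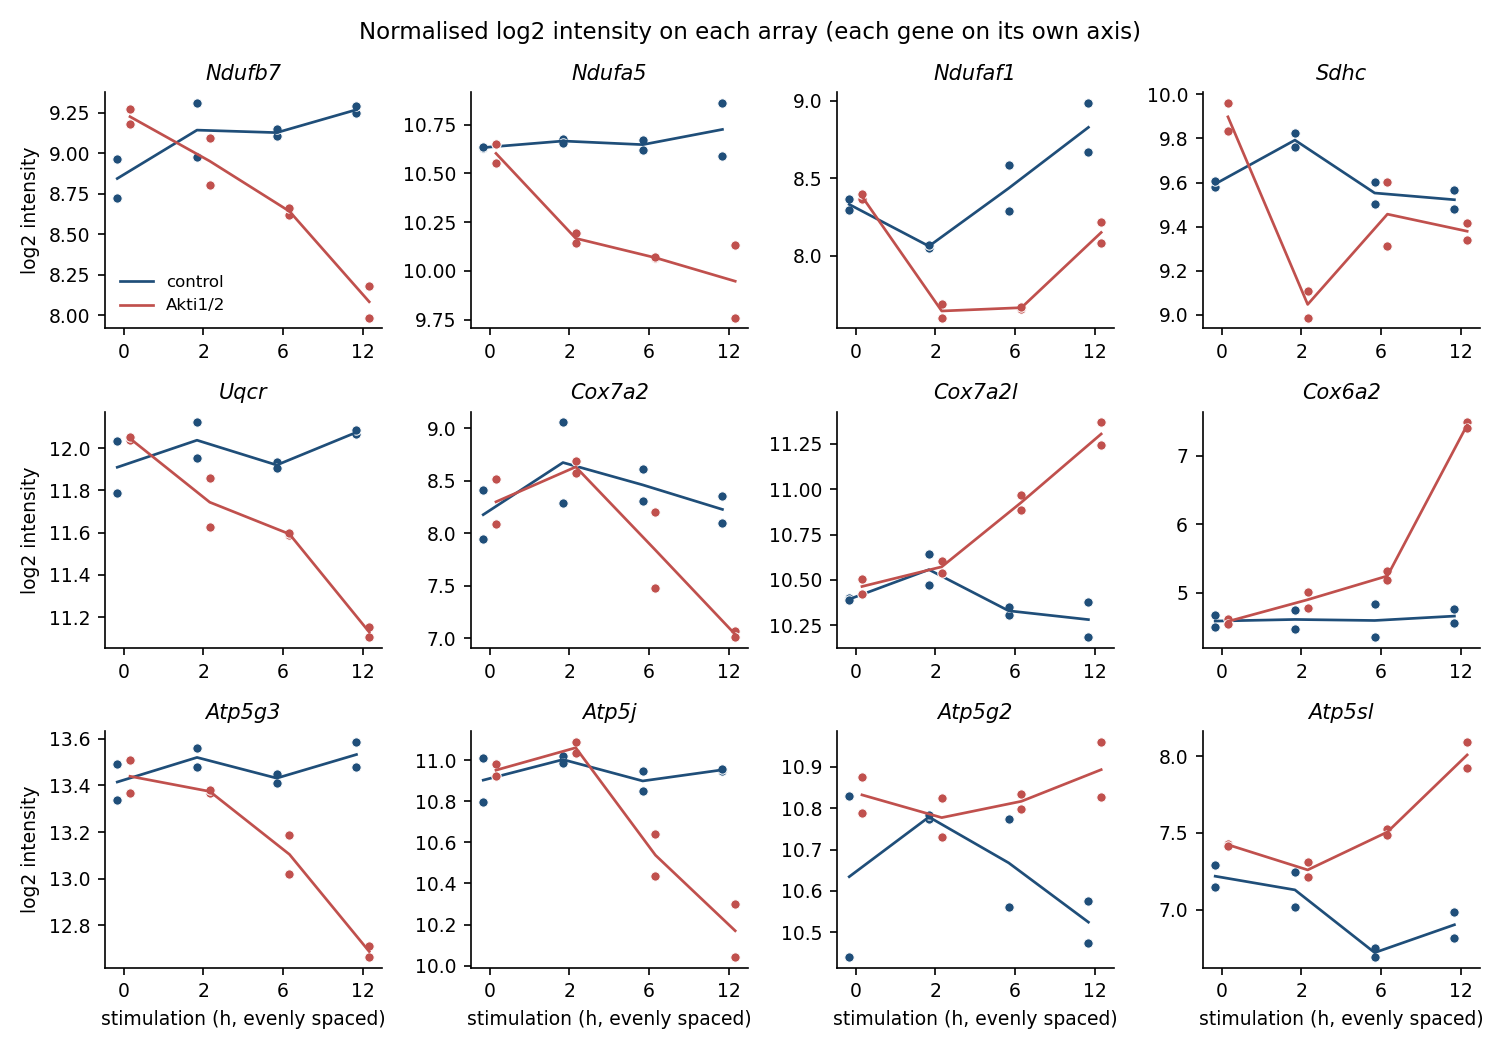
Normalised log2 intensity (y axis, each gene on its own scale) against hours of stimulation, evenly spaced (x axis), for 12 genes; each point is 1 array and lines join the means of control (blue) and Akti1/2 (red). In the Akti1/2 arm Ndufb7, Uqcr, Cox7a2, Atp5g3 and Atp5j fell to 12 h while Cox7a2l, Cox6a2 and Atp5sl rose, and Sdhc was lowest at 2 h; Cox6a2 was at background on all arrays but the 12 h Akti1/2 pair.

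Complex V makes ATP with a catalytic F1 part, a membrane Fo rotor of c subunits and a stalk that holds the F1 part. Of 15 tested genes, 7 were lower and 2 higher at 12 h. Most of the calls were outside the F1 part, a split described with the values known and not tested. Of 8 Fo and stalk genes, 6 were lower and 1 higher, with a median of -0.35. Of the 5 genes of the F1 part, 1 was lower, with a median of -0.41 and wide errors for Atp5a1 (SE 0.45) and Atp5e (SE 0.25). The F1 gene called was Atp5d, the delta subunit (log2 difference -0.42, SE 0.11, adjusted p = 0.00781).

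Atp5g2 and Atp5g3 encode c subunits with the same mature protein. Atp5g3 read 13.48 and 13.59 in control cells against 12.66 and 12.71 with Akti1/2 at 12 h, 1.8-fold lower (log2 difference -0.85, SE 0.11, adjusted p = 3.85e-05), and 13.45 and 13.41 against 13.02 and 13.19 at 6 h (log2 difference -0.33, SE 0.11, adjusted p = 0.0282). Atp5g2 was higher with Akti1/2, at 10.58 and 10.47 against 10.83 and 10.96 at 12 h (log2 difference 0.37, SE 0.13, adjusted p = 0.0343). The arms did not overlap for either gene at 12 h, but the call of Atp5g2 was lost with any of the 4 arrays left out (highest adjusted p = 0.167) and with scaling to the same mean (adjusted p = 0.0588). The promoter of Atp5g3, with its NRF1 core just after the start, is the first of those shown.

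Atp5j, coupling factor 6 of the stalk, read 10.95 and 10.96 against 10.04 and 10.30 at 12 h (log2 difference -0.78, SE 0.12, adjusted p = 0.000179) and 10.85 and 10.95 against 10.44 and 10.64 at 6 h (log2 difference -0.36, SE 0.12, adjusted p = 0.0313). Atp5o, the stalk subunit that gives the enzyme its sensitivity to oligomycin, read 9.32 and 9.53 against 8.67 and 8.84 at 12 h (log2 difference -0.67, SE 0.12, adjusted p = 0.000478). In both genes the Akti1/2 arrays at 12 h lay below all other arrays of the series. Atp5f1, Atp5l and Atp5j2 of the stalk and membrane part were lower by smaller amounts, with log2 differences of -0.36, -0.34 and -0.29. Atp5b, the catalytic beta subunit, was lower at 2 h, at 14.07 and 14.12 against 13.72 and 13.57 (log2 difference -0.45, SE 0.11, adjusted p = 0.00911), and not called afterwards.

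Atp5sl, the complex I assembly factor now named Dmac2, was higher with Akti1/2 than in control cells. It read 6.75 and 6.69 against 7.53 and 7.48 at 6 h (log2 difference 0.79, SE 0.11, adjusted p = 0.000232) and 6.82 and 6.99 against 8.09 and 7.92 at 12 h, 2.15-fold higher (log2 difference 1.11, SE 0.11, adjusted p = 8.7e-06). The arms were apart at both times. At 6 h it had fallen in control cells, as given above, and had not been called with Akti1/2 against 0 h (log2 difference 0.08, adjusted p = 0.626), and at 12 h it had risen with Akti1/2 (log2 difference 0.58, adjusted p = 0.00134). Of the 4 genes set outside the complexes by present name (Atp5sl, Atp5s and Cox4nb) or by known role (Cox7a2l), 2 were higher and 1 lower at 12 h.

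**Figure D4:**
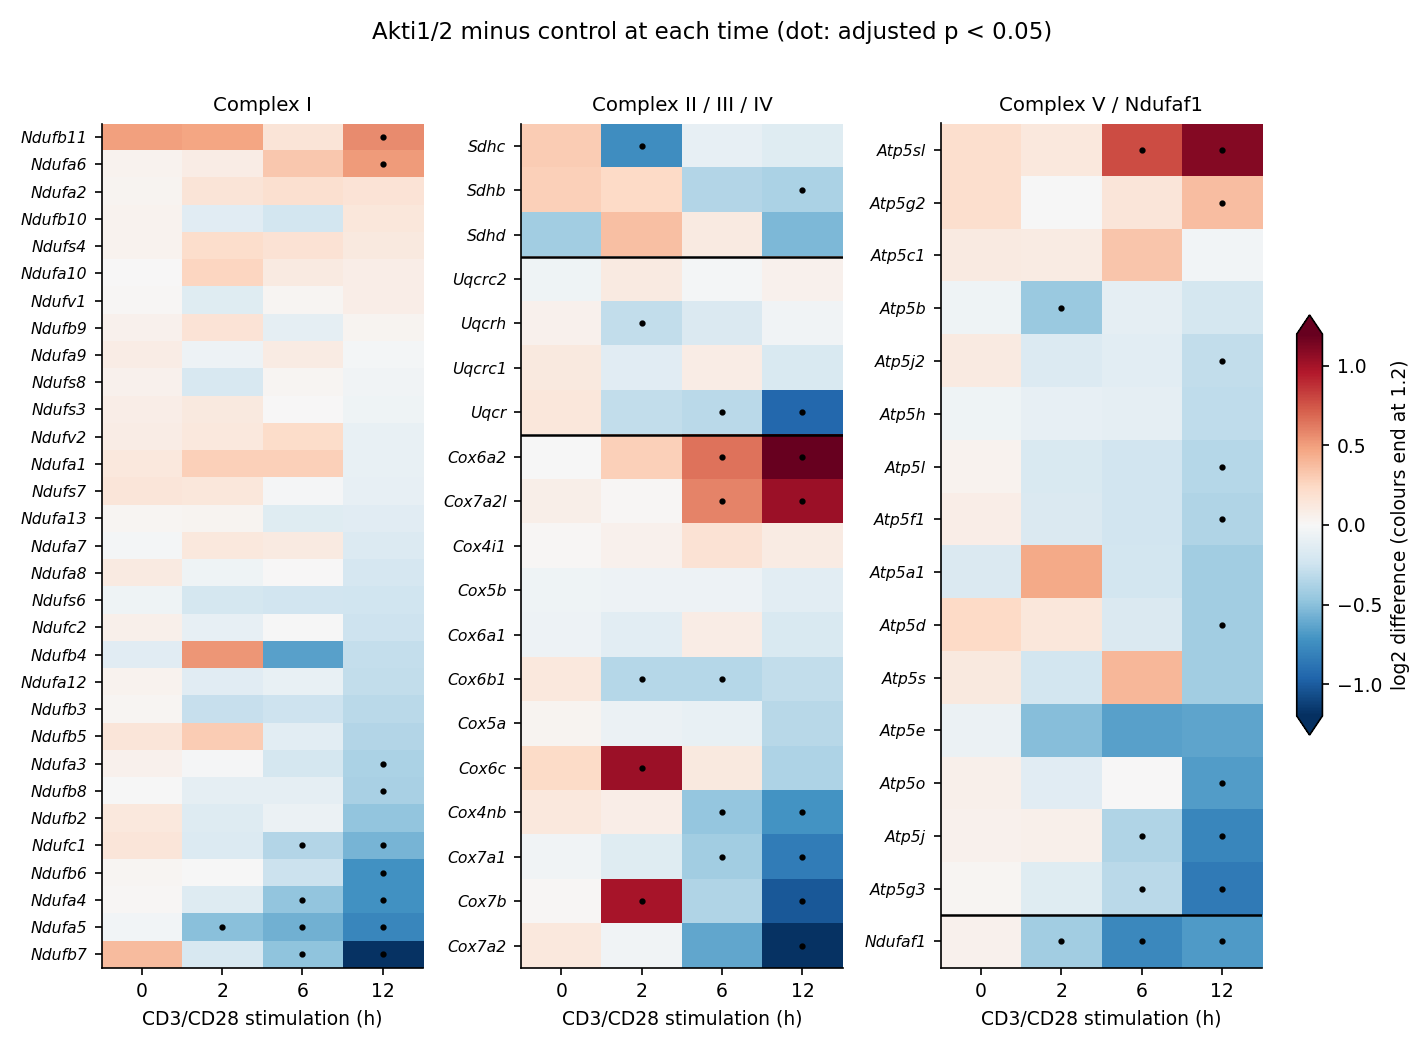
Log2 difference of Akti1/2-treated from control cells (colour, red higher and blue lower, ending at 1.2) at 0, 2, 6 and 12 h (columns) for the tested genes but 1 (rows, by complex and ordered by the value at 12 h); black dots mark an adjusted p under 0.05. No gene was called at 0 h, 8 at 2 h, 14 at 6 h and 27 at 12 h, and the gene not shown was called at none of these times.

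The genes called at 6 h were nearly all called again at 12 h. Of the 11 lower at 6 h, 10 were among the 21 lower at 12 h, and the exception was Cox6b1. Atp5sl and Cox7a2l were higher at both times, and so was Cox6a2, whose 6 h arrays were all at background. At 2 h the genes were mostly others, since 3 of the 6 lower were lower at 6 h and 2 at 12 h, and neither of the 2 higher was higher later. These comparisons use different arrays, but the fit took the residual spread of each gene from all arrays together. The calls at different times are therefore not independent. How many of all genes tested were called again at a later time was not counted, so the recurrence cannot be set apart from that of other genes.

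Within the Akti1/2 arm, more of these genes were lower than at 0 h as time went on. Stimulation and time since Akti1/2 was added ran together here. Against its own 0 h arrays, 6 were higher (17.8% of all genes) and 5 lower (20.9% of all genes) at 2 h, 3 higher (15.4% of all genes) and 14 lower (17.9% of all genes) at 6 h, and 4 higher (21.1% of all genes) and 31 lower (23.4% of all genes) at 12 h. The median change at 12 h was -0.35 against -0.04 over all genes. In 54 of the 67 it was below 0, against 3905 of all 7395. At 12 h 13 of 32 genes were lower in complex I, 2 of 3 in complex II, 2 of 4 in complex III, 5 of 12 in complex IV and 9 of 15 in complex V. The 2 h rises were Cox7b (1.70), Cox6c (1.46), Sdhd (1.19), Ndufb5, Ndufs4 and Ndufa1. That of Sdhd was 0.63 on chip 1 and 1.74 on chip 2, where its 0 h array had the lowest reading of the 16.

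At 12 h the largest falls from 0 h were Cox7a2, from 8.51 and 8.08 to 7.07 and 7.01 (log2 difference -1.26, SE 0.28, adjusted p = 0.00271), Ndufb7, from 9.18 and 9.27 to 7.99 and 8.18 (log2 difference -1.14, SE 0.14, adjusted p = 4.23e-05), and Cox7a1, from 8.60 and 8.60 to 7.62 and 7.54 (log2 difference -1.02, SE 0.12, adjusted p = 2.44e-05). The rises were Cox6a2, Cox7a2l, from 10.51 and 10.42 to 11.37 and 11.24 (log2 difference 0.84, SE 0.11, adjusted p = 5.4e-05), Atp5sl (0.58) and Ndufa6 (0.42). At 2 h the 11 calls fell to 6 without the second 0 h array and to 6 without the second 2 h array. At 6 h the 17 calls fell to 8 without the first 0 h array, to 7 without the second and to 5 in a fit of these groups alone.

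**Figure D5:**
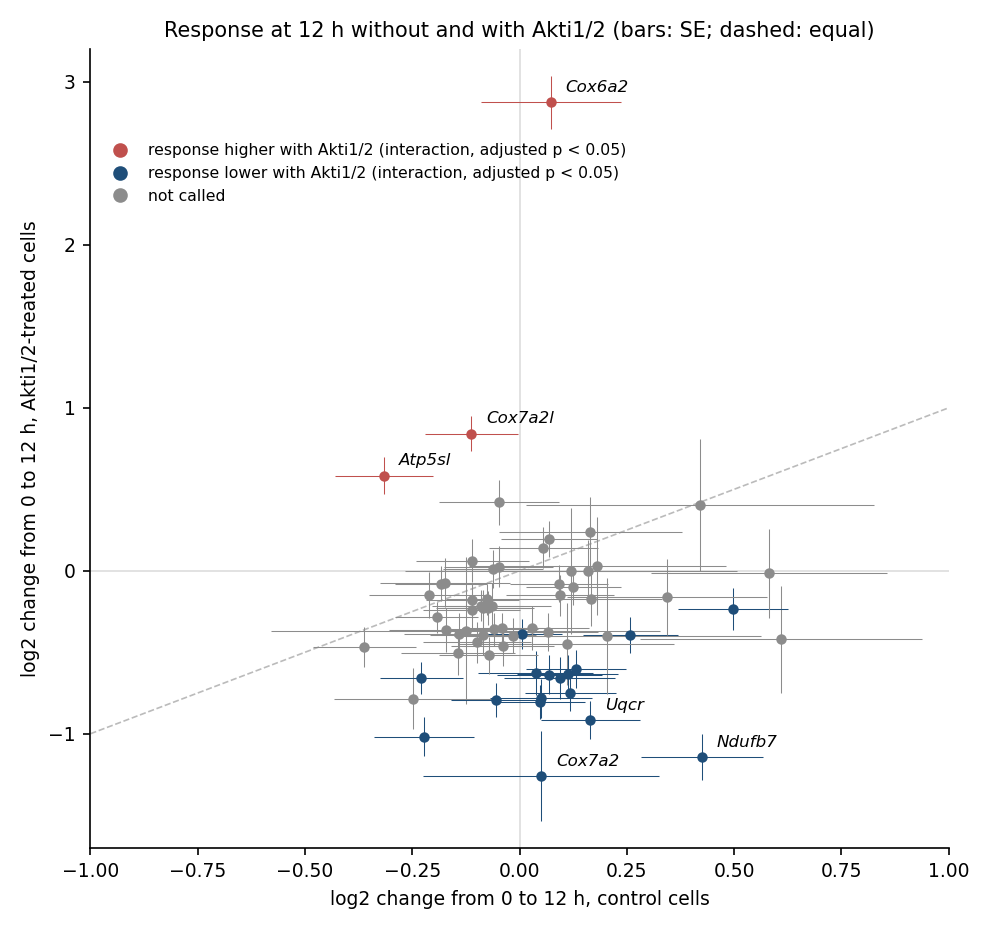
Log2 change from 0 to 12 h in control cells (x axis) and in Akti1/2-treated cells (y axis, on another scale) for the tested genes but 1; bars are SE, the dashed line marks equal changes, and red and blue mark a response called higher or lower with Akti1/2 in the interaction test. Points spread below the dashed line, with Ndufb7 at 0.42 and -1.14, and Cox6a2, Cox7a2l and Atp5sl stood above it.

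Whether the change since 0 h differed between the arms was tested as the interaction, the change in treated cells less that in control cells. The interaction also holds the longer time since Akti1/2 was added. At 2 h 0 genes were higher (4.25% of all genes) and 1, Sdhc, was lower (4.16% of all genes), with a log2 interaction of -1.05 (adjusted p = 0.00437 by limma). Its 0 h arrays had read 9.58 and 9.61 in control cells against 9.96 and 9.83 with Akti1/2, a difference that was not called. At 6 h 2 were higher (10.3% of all genes) and 5 lower (9.24% of all genes). At 12 h 3 were higher (16.3% of all genes) and 17 lower (16.2% of all genes), or 4.48% and 25.4%, with a median of -0.30 against -0.02 over all genes. These 17 were all among the 21 lower than control cells at 12 h, a comparison that shares its 12 h arrays.

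The 12 h interaction was lower in 6 of 32 genes of complex I, 1 of 3 of complex II, 1 of 4 of complex III, 3 of 12 of complex IV and 5 of 15 of complex V, and in Ndufaf1. Ndufb7 gave the largest fall (log2 difference -1.57, SE 0.20, adjusted p = 0.000137). It rose in control cells and fell with Akti1/2, and its 0 h arrays were those given above, higher with Akti1/2. Cox7a2 followed (log2 difference -1.31, SE 0.39, adjusted p = 0.0214), and its call was lost without 5 of the 8 arrays in turn (the first 0 h array of either arm, the second 12 h control array and either 12 h Akti1/2 array), with a highest adjusted p of 0.0881. Uqcr came next (log2 difference -1.08, SE 0.16, adjusted p = 0.000398). The higher responses were Cox7a2l (log2 difference 0.95, SE 0.15, adjusted p = 0.000587), Atp5sl (log2 difference 0.90, SE 0.16, adjusted p = 0.00126) and Cox6a2, which had arrays at background in 3 of the 4 groups and was tested only through the other. At 6 h the 7 calls fell to 2 without the first 0 h control array or the first 6 h control array, to 3 without either 0 h Akti1/2 array and to 4 without the second 0 h control array, and without background correction they were 2 higher and 13 lower.

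The duplicates differed far more in some of these genes than in others. The SE at 12 h had a median of 0.12 and was at or under 0.19 in 56 genes, and it was over 0.2 in 11, Atp5a1, Ndufb9, Sdhd, Cox6c, Cox7b, Ndufb4, Cox7a2, Ndufb2, Atp5e, Ndufb5 and Ndufb11. These 11, picked for their spread, mostly differed the same way between the duplicates of a group. In the 2 h control group the second array was above the first in 10 of the 11, with a median difference of 0.76 and 1.52 in Atp5a1, and in the 6 h Akti1/2 group in 10 of the 11, with a median of 0.74 and 1.56 in Cox6c. In the 0 h Akti1/2 group the second array was above the first in 1 of the 11, with a median of -0.41. In the 56 other genes the medians in these groups were 0.00, 0.02 and -0.01. The agreement was weakest in the 2 h Akti1/2 group, with the second array above the first in 7 of the 11 and a median of 0.02. Ndufb11 went against the rest in the 2 h control (-0.51) and 6 h Akti1/2 (-0.20) groups. Cox7a2, Cox7b, Cox6c and Ndufb11, called against control cells, and Sdhd and Ndufb5, called at 2 h within the Akti1/2 arm, are among these wide genes, and the part of the array differences in them was not tested.

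Other genes of energy metabolism, from lists drawn up with earlier results known, were counted in the same fit, in which the share of all genes called higher was 24.2% at 12 h (18.8% at 6 h) and that called lower 24.8% (18.7% at 6 h). Of 22 tested respiratory chain genes outside the rule (cytochrome c, assembly and translation factors of the oxidase and others), 1 was higher and 13 lower with Akti1/2 at 12 h, with a median of -0.47. Of 15 genes of pyruvate dehydrogenase and the citric acid cycle, 2 were higher and 7 lower, with a median of -0.37. Of 18 genes of glycolysis and lactate transport, 4 were higher and 7 lower at 12 h, with a median of -0.30, and 1 was higher and 10 lower at 6 h, when the median was -0.38. Of 12 genes for nuclear regulators of these genes and of mitochondrial DNA, 3 were higher and 2 lower at 12 h, with a median of -0.02.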

How the data were processed

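Total RNA of 16 samples of the D10 line was hybridised to Illumina mouse RefSeq8 bead arrays. The values deposited by the authors are mean bead intensities per gene and array on a linear scale, before background correction and normalisation, with 832 control entries. A second table of control probes covered 15 of the 16 arrays and was not used. Intensities were background corrected with the 798 negative controls, quantile normalised and put on a log2 scale with an offset of 16 (neqc, limma 3.58.1, R 4.3.3). A gene was tested when its detection p was under 0.01 on at least 2 arrays, which left 7395 of 18138 genes. One linear model with a mean per group was fitted to all 16 arrays (8 residual degrees of freedom), and 13 contrasts were tested by moderated statistics, each with Benjamini-Hochberg adjustment over all 7395 genes and a threshold of 0.05. The number of arrays, 2 per group, limits the precision. The fit was tested on simulated data. Figures were drawn with matplotlib 3.10.9 in Python 3.11.15.

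Groups came from the sample titles. Genes were named by rule. Named were the largest differences of each complex at 12 h, the largest called changes in each other comparison, all Sdh and Ndufaf genes and the genes of isoform families. Genes named beyond these were chosen after their values were seen. The members, lists, roles and tests were chosen with earlier results of these data known. All 77 genes matched RefSeq, by gene ID or, where the table gave none (Atp5k, Cox4i1 and Cox5b), by symbol, and 5 had a newer symbol. Some genes of the rule and of the marker lists are not reported here by name. As alternatives, each array was left out in turn, the background correction was omitted, arrays were scaled to equal means, the filter on dim genes was dropped or set to all arrays, replicate number or chip entered as a block, and only the compared groups were fitted.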

Additional observations from a re-analysis of the deposited data

Results flagged for a closer look

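The change since 0 h, called the response here, differed between cells with and without Akti1/2 in few of the 67 genes early on. It was 1 at 2 h, 7 at 6 h and 20 at 12 h. Over all genes the shares also grew, from 4.25% higher and 4.16% lower at 2 h to 10.3% and 9.24% at 6 h and 16.3% and 16.2% at 12 h. The genes were called by the interaction test of limma with Benjamini-Hochberg adjustment. Among the named genes, the log2 interaction at 12 h was -1.57 in Ndufb7, -1.31 in Cox7a2 and -1.08 in Uqcr, whose responses were lower with Akti1/2. It was 0.90 in Atp5sl, 0.95 in Cox7a2l and 2.80 in Cox6a2, whose responses were higher. With Cox6a2, 3 of the 4 groups compared were at background, so its value depends on the offset and is no measured fold.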

How the results depend on the processing

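At 12 h, the counts of genes called moved by less than 1.5 times under every alternative for Akti1/2 against control (27, from 24 to 36, and from 20 to 22 with an array left out), for Akti1/2 from 0 h (35, from 33 to 39, and from 24 to 28) and for the interaction (20, from 20 to 26, and from 16 to 19), and none was called at 0 h under any. Without background correction the counts were 3 for control at 2 h (0 in the report), 1 for control at 6 h (2), 5 for control at 12 h (3), 17 for Akti1/2 at 2 h (11), 5 for the interaction at 2 h (1) and 15 for that at 6 h (7). Without a filter on dim genes they were 1 for control at 6 h, 1 for control at 12 h and 5 for Akti1/2 against control at 2 h (8), and with a filter on all arrays 1 for control at 2 h and 1 at 6 h. Scaling to the same mean gave 2 for the interaction at 2 h. In fits of only the groups compared, 5 were called for Akti1/2 at 6 h (17), 3 for Akti1/2 against control at 2 h and 4 at 6 h (14). With an array left out the counts ran from 0 to 2 for control at 2, 6 and 12 h, from 6 to 9 for Akti1/2 at 2 h, from 7 to 14 at 6 h, from 2 to 4 for Akti1/2 against control at 2 h, from 6 to 17 at 6 h and from 2 to 7 for the interaction at 6 h. The causes were not tested.

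A replicate block gave 1 call for control at 2 h and 2 for the interaction at 2 h, and a chip block 1 for control at 2 h. Other counts moved by under 1.5 times with the replicate block. Deviations of same-numbered arrays correlated by -0.296 to 0.264 (median 0.0174 over 56 pairs of arrays), so the number was not taken to pair the samples. The 2 arrays of a group deviate from their mean by opposite amounts, so pairs of first arrays and pairs of second arrays gave the same values. Same-numbered arrays also shared a chip in all groups but the 12 h control, and for arrays of the same chip the median was 0.0272.

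The signs of 2 named genes that were not called turned. Uqcrc2 at 12 h was -0.07 with scaling to the same mean and between -0.016 (without the first 12 h Akti1/2 array) and 0.112 with an array left out, and Cox4i1 was between -0.041 (without the first 12 h control array) and 0.242. Of the other values of named genes under alternatives, 353 kept direction and side of the threshold, 41 lost the threshold and 5 gained it. Medians over the 67 genes or over a complex were compared as well, with single chips and left-out arrays included. Of these, 111 stayed within 0.0371 of the report's value and 56 moved by more. That limit was the standard deviation, between arrays of a group, of the median over the 67 genes. Scaling to the same mean moved the median of all genes to 0.119 in the interaction at 6 h. It also moved the share of all calls that were higher, to 71.9% (52.7% in the report's fit) there, 64.7% (50.5%) in the interaction at 2 h, 60.6% (50.2%) at 12 h, 60.8% (50.1%) for Akti1/2 against control at 6 h, and 25.9% (43.0%) and 30.6% (44.0%) for control at 2 and 6 h. Low signal limits Ndufb4, Cox6a2, Ndufb11, Atp5s and Sdhd, which were not above background on all arrays.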
